A study of Mus musculus with 18 samples.

Results

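The genes described here encode receptors of interleukins, the cytokines through which leukocytes and glia signal to each other. All gene symbols that start with Il, a number and r were taken, without Il1rn, which encodes a soluble antagonist. This gave 40 genes of the 35869 listed. Of these, 23 reached 1 TPM, a transcript's share of a library scaled to a fixed sum, in at least 4 of the 17 libraries compared, and all 23 are described. For the whole library set 17087 genes met the same condition. Il1r2, Il3ra and Il7r met it with exactly 4 libraries, and Il12rb1, Il20rb and Il22ra2 lay just outside with 2.

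Most interleukin receptors are assembled from a chain that binds one cytokine and a chain that several receptors share, such as the common gamma chain (Il2rg), gp130 (Il6st), Il10rb or Il1rap. Class I and class II chains signal through JAK kinases and STAT factors, whereas chains of the IL-1 and IL-17 receptor families signal through adaptor proteins such as MyD88, Act1 and the TRAFs. Some members, among them Il1r2 and Il13ra2, act mainly as decoys that bind a ligand without passing on its signal. In the brain, microglia are the main cells that carry many of these receptors, and IL-10 signalling in microglia is known to restrain their inflammatory response.

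Cells were sorted by flow cytometry from brains of adult C57BL/6 mice, all of which had received tamoxifen by oral gavage, 5 doses of 180 mg/kg. The control group carried Cx3cr1CreERT2, a recombinase that tamoxifen switches on in microglia and in other macrophages that use the Cx3cr1 gene. The group called KO carried the same allele together with floxed Tgfb1 on both chromosomes, so that these cells could lose TGF-beta 1, the cytokine it encodes. The libraries came from control microglia (animals 1, 2, 4 and 5), KO microglia (animals 1 to 4), control astrocytes (animals 1 to 5) and KO astrocytes (animals 1 to 4). Astrocytes do not make the recombinase, so the astrocyte libraries are of cells beside the targeted ones. The labels number the mice, so each n counts animals.

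Tgfb1 was listed between 2.8 and 3.4 TPM in control microglia and between 1.3 and 2 TPM in KO microglia, without overlap, and at no more than 0.3 TPM in any astrocyte library. Between 12456 and 13127 genes reached 1 TPM in the microglial libraries and between 14086 and 15484 in the astrocyte libraries. The number of reads behind a value is unknown. Control animals 1 and 2 and all KO animals gave libraries without Y-linked RNA (Ddx3y under 10 TPM), whereas control animals 3, 4 and 5 had it. Genotype and this property are therefore partly confounded, and values against each kind of control are given below. Markers of the sorted cell type were present in every library. Summed over 10 microglial markers they reached at least 10020.9 TPM in microglia, and summed over 10 astrocyte markers at least 17201.8 TPM in astrocytes.

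Control microglia carried 9 of the receptors at more than 20 TPM in every library. By mean level, normalized for transcript length, the order was Il13ra1 (293 ± 75.7 TPM, SD, n = 4), Il10rb (216 ± 32.1), Il6ra (173 ± 47.2), Il10ra (128 ± 18.7), Il17ra (104 ± 36), Il21r (70.9 ± 11.5), Il7r (41.7 ± 15.2), Il4ra (34.9 ± 11.3) and Il11ra1 (33.8 ± 1.61). Each neighbouring pair in this order overlapped between libraries. The next gene, Il1rl2 at 18 ± 3.05 TPM, lay below Il11ra1 without overlap. In KO microglia the order was different at the top, with Il10rb first at 494 ± 31.6 TPM, no overlap with Il13ra1 at 229 ± 34.8 TPM, and Il2rg among the leading genes. Il10rb made up 18.9% of the summed TPM of the 23 genes in control and 41.7% in KO microglia, and Il13ra1 25.6% and 19.4%. The summed level itself overlapped between the genotypes, with 955.8 to 1319.5 TPM in control and 1108.5 to 1262.9 TPM in KO microglia.

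**Figure D1:**
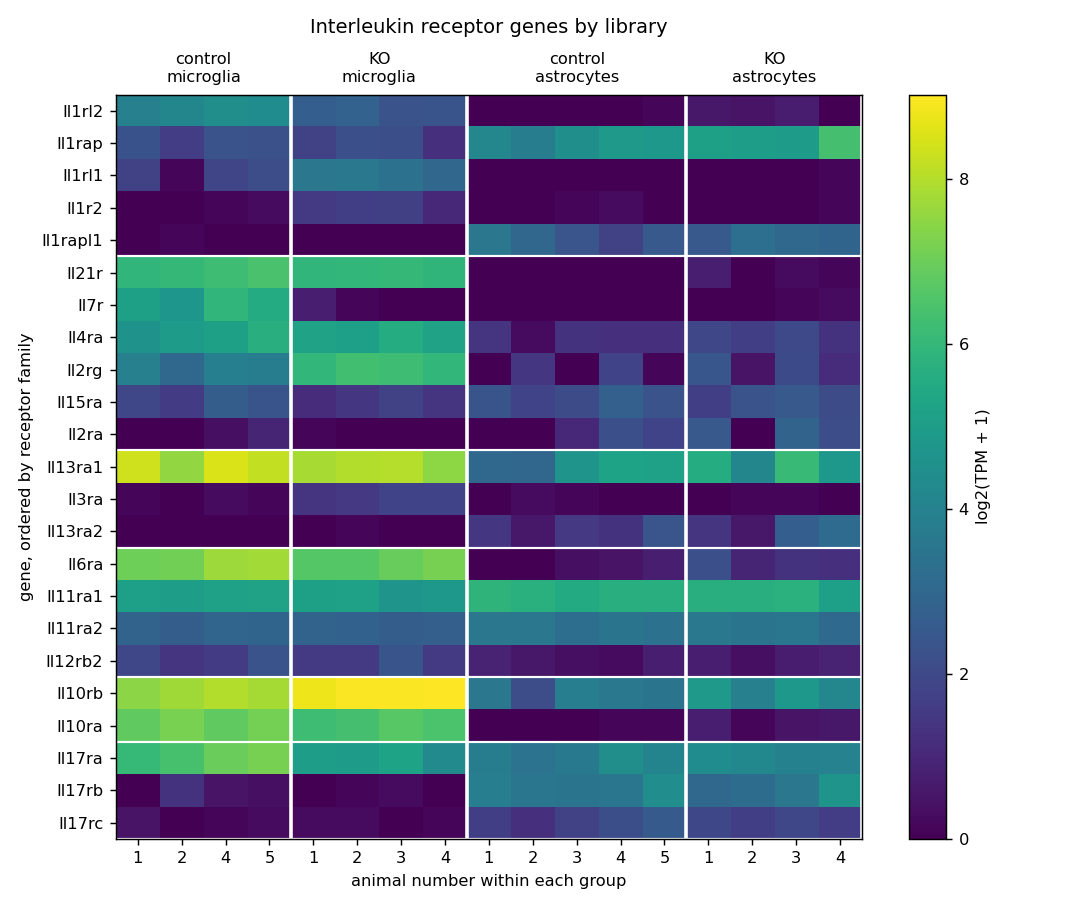
TPM of the 23 described interleukin receptor genes in each of the 17 libraries, on a log2(TPM + 1) colour scale, with genes grouped by receptor family and libraries by cell type and genotype. Il10rb, Il10ra, Il6ra and Il21r are high in every microglial library, while Il7r is seen almost only in control microglia.

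Of the 23 genes, 18 were measured well enough in microglia to be tested. In KO against control microglia 5 were higher (Il2rg, Il1rl1, Il3ra, Il1r2 and Il10rb) and 4 were lower (Il7r, Il17ra, Il1rl2 and Il10ra) at an adjusted p under 0.05, while 9 did not pass. Among all 13054 genes tested, 28.4% passed, 14.2% in each direction, so the receptors stood in a comparison with many changed genes. The 9 genes were also those whose libraries did not overlap between genotypes, which held for 30.6% of all genes tested. Il1r2 and Il3ra reached 1 TPM in the 4 KO libraries alone and Il7r in the 4 control libraries alone. These 3 genes entered the test only through the group where they were high, so their calls follow in part from the filter. The other 15 receptors gave 3 higher and 3 lower. With no filter on low values the 3 genes also passed (limma adjusted p = 0.00133 for Il1r2, 0.000381 for Il3ra and 7.64e-06 for Il7r). The described set itself took them in through the same 4 libraries, so these values do not lift that limit. The median log2 difference was -0.19 for the 18 receptors and 0.00 for all genes. All log2 differences are of TPM after adding 1 TPM, which understates the change of genes at low levels. In RNA of sorted cells, fewer cells of a type and less RNA per cell cannot be told apart.

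**Figure D2:**
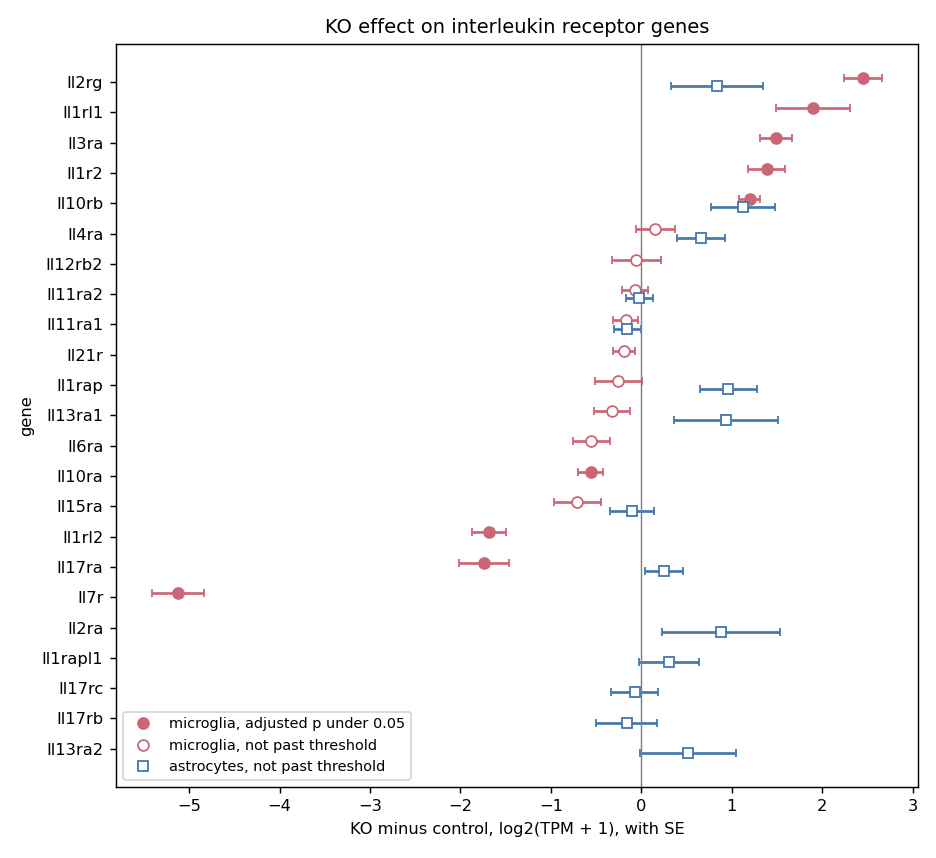
Log2 difference between KO and control, with its standard error, for each receptor gene tested in microglia and in astrocytes. In microglia the values run from -5.12 (Il7r) to 2.45 (Il2rg), and in astrocytes none passed the threshold.

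The common gamma chain family held the largest fall of the set and, on the log2(TPM + 1) scale, the largest rise. With a pseudocount of 0.1 TPM the rises of Il1r2 (3.58) and Il3ra (3.54) were larger than that of Il2rg, which was at most 2.64 under the alternatives run. Il7r encodes the IL-7 receptor alpha chain, which also serves in the receptor of thymic stromal lymphopoietin (chr15:9505788-9530176, minus strand, GRCm38). It was at 34, 26, 61 and 45.7 TPM in the 4 control microglial libraries and at 0.7, 0.1, 0 and 0 TPM in the KO libraries. No KO library came near the lowest control library. The log2 difference was -5.12 (SE 0.29, limma adjusted p = 1.52e-06). Il2rg encodes the common gamma chain, which pairs with the alpha chains of the IL-2, IL-4, IL-7, IL-9, IL-15 and IL-21 receptors (chrX:101264378-101268255, minus strand). It moved the opposite way, from 14.4, 7.2, 13.8 and 13.3 TPM in control to 62.6, 78.3, 74.5 and 61.6 TPM in KO microglia. Every KO library exceeded every control library more than 4-fold, and the log2 difference was 2.45 (SE 0.21, limma adjusted p = 2.1e-05). GENCODE also lists a longer transcript model, Gm20489, over Il2rg on the same strand, and its reads could have been counted for either.

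None of the tested chains Il4ra, Il21r and Il15ra, which pair with Il2rg, passed the test in microglia. Il4ra, the IL-4 receptor alpha chain, was at 24, 31.1, 33.8 and 50.6 TPM in control and 36, 33.1, 47.1 and 35.4 TPM in KO microglia, with overlap (log2 difference 0.15, 95% interval -0.33 to 0.64, limma adjusted p = 0.651). Il21r, the IL-21 receptor, spanned 60.6 to 85.8 TPM in control and 59 to 63.4 TPM in KO microglia (log2 difference -0.20, 95% interval -0.47 to 0.08, limma adjusted p = 0.276). Il15ra, the chain that holds and presents IL-15, was at 2.8, 2, 5.4 and 4.1 TPM in control and 1.2, 1.7, 2.4 and 1.6 TPM in KO microglia, with overlap (log2 difference -0.71, SE 0.26, limma adjusted p = 0.0725). Il15ra passed the threshold with quantile normalization (adjusted p = 0.0415) and when the library of control animal 2 was left out (adjusted p = 0.022). Il2ra, the IL-2 receptor alpha chain, was at no more than 0.9 TPM in any microglial library. Il2rb, the beta chain shared by the IL-2 and IL-15 receptors, never exceeded 0.3 TPM. The level of Il2rg relative to these partners therefore differed. The ratio of Il2rg to Il21r rose from between 0.114 and 0.238 in control libraries to between 1.04 and 1.25 in KO libraries, and that of Il2rg to Il4ra from between 0.232 and 0.6 to between 1.58 and 2.37. These ratios are descriptions and were not tested.

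The sequence before the start of Il2rg and short stretches near that of Il7r are shown because both genes code for chains of the IL-7 receptor and moved in opposite directions. They were taken from RefSeq promoters of GRCm38.p6, and 20 of the 23 described genes have at least 1 promoter in that table. 4 motifs were searched on both strands in windows from 250 bases before to 50 after each start: GAGGAAGT for the PU.1 type of ETS factor, a pair of GAAA blocks 2 bases apart for interferon response factors, TTCNNNGAA for STATs and CAGACA for SMADs. Capitals mark a match. For Il7r, a STAT match and a SMAD match on the other strand are shown at chr15:9530000-9530029 and chr15:9529860-9529889, which lie inside the longer gene of GENCODE. The 250 bases before the start of Il2rg, at chrX:101268256-101268505 on the minus strand, held none of the motifs.
Il7r, STAT match: agttcaggagcTTCAGGGAAtaccaagatg
Il7r, SMAD match: ttcatagttcccTGTCTGtggtttagcagg
Il2rg: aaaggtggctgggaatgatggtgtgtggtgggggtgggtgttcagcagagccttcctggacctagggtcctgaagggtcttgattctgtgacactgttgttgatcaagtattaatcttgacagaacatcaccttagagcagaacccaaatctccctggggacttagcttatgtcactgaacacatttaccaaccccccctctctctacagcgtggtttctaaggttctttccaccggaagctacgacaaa
Of all 32851 promoters in the table, 8.30% held the STAT letters, 21.0% the SMAD letters, 3.20% the PU.1 letters and 3.44% the interferon letters. Among the 23 promoters of described receptors, these counts were 3 (Il12rb2, Il1r2 and Il7r), 4 (Il1rapl1, Il1rl2, Il21r and Il7r), 0 and 1 (Il1rap). The motifs were chosen with the expression results known, a match is not a binding site, and no binding was measured.

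Both chains of the IL-10 receptor were abundant in microglia, and they moved in opposite directions. Il10ra binds IL-10 itself (chr9:45253837-45269149, minus strand). It was at 111.2, 148.2, 112.4 and 138.9 TPM in control and 73.5, 82, 101 and 87.9 TPM in KO microglia. The genotypes did not overlap, but the highest KO and the lowest control library were close, and the log2 difference was -0.56 (SE 0.14, limma adjusted p = 0.0121). A microRNA gene, Mir7086, lies over Il10ra on the same strand and was also listed, so the reads of both cannot be told apart. Il10rb is shared with the receptors of IL-22 and interferon lambda (chr16:91406164-91425834, plus strand). It was at 174.6, 211.9, 251.7 and 225.2 TPM in control and 447.7, 504.5, 502.3 and 519.9 TPM in KO microglia. All KO libraries lay far above all control libraries, with a log2 difference of 1.2 (SE 0.12, limma adjusted p = 4.79e-05). A transcript model over the same strand, Gm21970, also covers Il10rb in GENCODE. The ratio of Il10rb to Il10ra was between 1.43 and 2.24 in control libraries (median 1.6) and between 4.97 and 6.15 in KO libraries (median 6.00). The specific chains of those receptors were hardly listed: Il22ra1, for IL-22, reached 0.1 TPM, and Ifnlr1, for interferon lambda, was at 0 in all microglial libraries and at no more than 0.2 TPM in astrocytes.

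The IL-1 receptor family gave 2 rises and 1 fall among its 4 genes tested in microglia, and these 3 genes lie in the same cluster on chromosome 1. Il1r2, Il1r1, Il1rl2, Il1rl1, Il18r1 and Il18rap follow each other within 478 kb (chr1:40074079-40551705), all on the plus strand, with 0 other protein-coding genes between them. Il1rl2, the receptor of IL-36 cytokines, was at 14.3, 16.7, 21 and 19.9 TPM in control and 5.5, 6.2, 3.9 and 4.1 TPM in KO microglia. The groups were well apart, with a log2 difference of -1.68 (SE 0.19, limma adjusted p = 0.000126). Il1rl1, also called ST2, is the receptor of IL-33. It was at 2.4, 0.1, 2.7 and 3.4 TPM in control and 10.8, 11.2, 9.5 and 6.8 TPM in KO microglia. All KO libraries were higher, although control animal 2 stood nearly at 0, and the log2 difference was 1.9 (SE 0.41, limma adjusted p = 0.00658).

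Il1r2, the IL-1 decoy receptor, was at 0, 0, 0.1 and 0.2 TPM in control and 1.9, 2.2, 2.3 and 1 TPM in KO microglia (log2 difference 1.38, SE 0.20, limma adjusted p = 0.00077). It was thus at the limit of the listed decimals in control and low but above 0 in all KO libraries, through which alone it entered the test. An antisense gene, Gm16894, overlaps Il1r2 and was listed between 0 and 5.2 TPM in control and between 12.9 and 21.4 TPM in KO microglia. The strand setting of the counting is not given, so reads of both genes cannot be told apart. The other 3 genes of the cluster stayed at or near 0 in microglia: Il1r1, the signalling receptor of IL-1, reached 0.3 TPM, and across all 17 libraries Il18r1 reached 0.2 TPM and Il18rap, its partner in the IL-18 receptor, 0.9 TPM. Il1rap, the accessory chain that the IL-1, IL-33 and IL-36 receptors share, lies on another chromosome (chr16:26581704-26730117). It was between 2.1 and 3.9 TPM in control and between 1.4 and 3.6 TPM in KO microglia (log2 difference -0.26, SE 0.26, limma adjusted p = 0.522). The ratio of Il1rl2 to Il1rap was between 3.76 and 7.95 in control and between 1.11 and 2.93 in KO libraries.

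**Figure D3:**
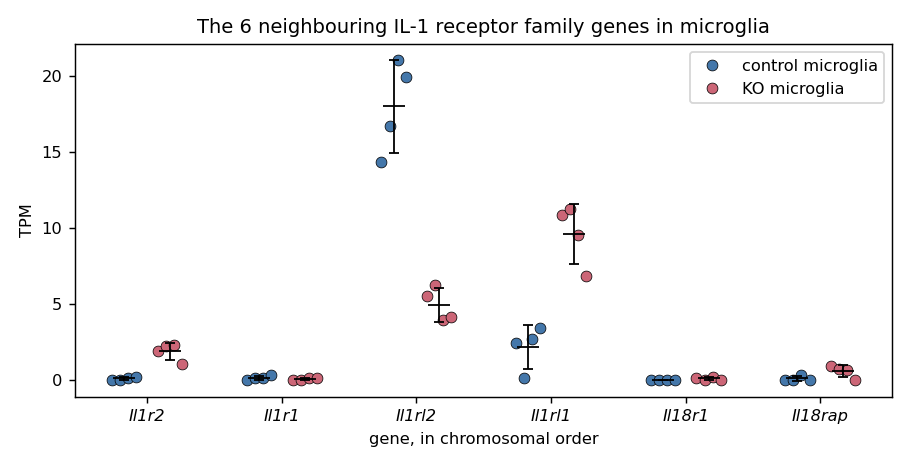
Levels of the 6 neighbouring IL-1 receptor family genes in control and KO microglia, in their order along the chromosome, with each point a library. Il1rl2 and Il1rl1 lie next to each other and moved in opposite directions, while Il1r1, Il18r1 and Il18rap stayed under 1 TPM.

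The promoters of Il1rl2 and Il1rl1 are shown since these neighbours moved in opposite directions. RefSeq gives Il1rl1 a first start that follows chr1:40429320-40429569 and a second that follows chr1:40439379-40439628, and gives Il1rl2 a start after chr1:40324339-40324588, all on the plus strand of GRCm38.p6. The only match to the 4 motifs in these stretches, in capitals, was the SMAD letters before Il1rl2.
Il1rl2: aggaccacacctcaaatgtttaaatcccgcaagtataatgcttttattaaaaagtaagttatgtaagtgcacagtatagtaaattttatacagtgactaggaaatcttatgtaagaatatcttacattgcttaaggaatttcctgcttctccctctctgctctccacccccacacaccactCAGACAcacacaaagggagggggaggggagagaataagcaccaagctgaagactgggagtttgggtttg
Il1rl1, first start: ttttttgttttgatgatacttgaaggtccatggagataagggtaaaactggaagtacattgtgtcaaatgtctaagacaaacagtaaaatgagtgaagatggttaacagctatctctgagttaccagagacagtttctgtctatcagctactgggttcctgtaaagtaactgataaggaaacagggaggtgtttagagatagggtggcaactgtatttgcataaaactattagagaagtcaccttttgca
Il1rl1, second start: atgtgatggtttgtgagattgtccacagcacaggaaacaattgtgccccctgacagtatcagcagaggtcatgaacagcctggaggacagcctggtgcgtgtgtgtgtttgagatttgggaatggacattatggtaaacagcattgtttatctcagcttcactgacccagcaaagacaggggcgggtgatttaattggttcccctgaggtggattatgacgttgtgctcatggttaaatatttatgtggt
The deposited values are per gene, so which of the 2 starts of Il1rl1 was used was not measured.

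Il17ra, the chain common to the receptors of IL-17A, IL-17F, IL-17C and IL-25, fell in KO microglia (chr6:120463247-120487559, plus strand). It was at 65, 83, 124.4 and 142.8 TPM in control and 32.5, 30.5, 37 and 19 TPM in KO microglia. The control libraries spread widely but none reached down to the KO libraries, and the log2 difference was -1.74 (SE 0.28, limma adjusted p = 0.00117). Its partners were low in microglia. Il17rc, which completes the receptor of IL-17A and IL-17F, was at no more than 0.4 TPM, and Il17rb, which binds IL-25, was at 0, 1.5, 0.4 and 0.3 TPM in control and at no more than 0.2 TPM in KO microglia. Il17rb was tested alone (exact two-sided permutation test of log2 values, p = 0.171, where 0.0286 is the smallest value possible).

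Il3ra, the IL-3 receptor alpha chain, rose from 0.1, 0, 0.2 and 0.1 TPM in control to 1.6, 1.8, 2.5 and 2.5 TPM in KO microglia (chr14:14346275-14356011, plus strand). The libraries did not overlap, at low levels throughout, and the log2 difference was 1.49 (SE 0.18, limma adjusted p = 0.000191), for a gene tested only because the KO libraries reached 1 TPM. Its partner Csf2rb, the beta chain shared by the IL-3, IL-5 and GM-CSF receptors, was already at 27 ± 1.83 TPM in control and at 30.9 ± 2.69 TPM in KO microglia (SD, n = 4 each) and did not pass the test (log2 difference 0.19, limma adjusted p = 0.255). Csf2rb has a near-identical copy, Csf2rb2, so the split between them is uncertain. Il13ra1, which binds IL-13 together with Il4ra, was at 328.7, 188.8, 364.2 and 289.5 TPM in control and 230.6, 250.2, 257 and 180.1 TPM in KO microglia, with overlap (log2 difference -0.32, SE 0.20, limma adjusted p = 0.28). Without control animal 2 its difference passed the threshold (log2 difference -0.52, adjusted p = 0.0259). The decoy Il13ra2 was at 0 in all control microglia and at no more than 0.1 TPM in KO microglia.

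None of the 4 tested receptors of the IL-6 and IL-12 families passed limma's test in microglia, and 1, Il6ra, had an unadjusted p under 0.05. Il6ra, which binds IL-6 and signals through gp130, was at 129.2, 135.1, 207 and 219.5 TPM in control and 99, 98.8, 122.1 and 142.3 TPM in KO microglia. The groups overlapped, and the log2 difference was -0.55 (SE 0.20, limma adjusted p = 0.0708). Leaving out control animal 1 (adjusted p = 0.0356) or control animal 2 (adjusted p = 0.0455) took it past the threshold. Il11ra1, the IL-11 receptor, lay between 31.7 and 35.4 TPM in control and between 24.7 and 34.6 TPM in KO microglia (log2 difference -0.18, limma adjusted p = 0.381). Il11ra2 is a near-identical copy, listed between 5.4 and 6.7 TPM in control and between 5.4 and 6.4 TPM in KO microglia, and the ratio of Il11ra1 to Il11ra2 stayed between 4.46 and 5.87 in all 17 libraries. The separate values of the copies are therefore uncertain. Il12rb2, the signalling chain of the IL-12 receptor, was between 1.6 and 3.9 TPM in control and between 1.9 and 4.1 TPM in KO microglia (log2 difference -0.06, limma adjusted p = 0.907). Its partner Il12rb1 was at 0 in all control microglia and at no more than 0.3 TPM in KO microglia. It reached 1 TPM in only 2 libraries, both of astrocytes, with a highest value of 1.1 TPM.

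**Figure D4:**
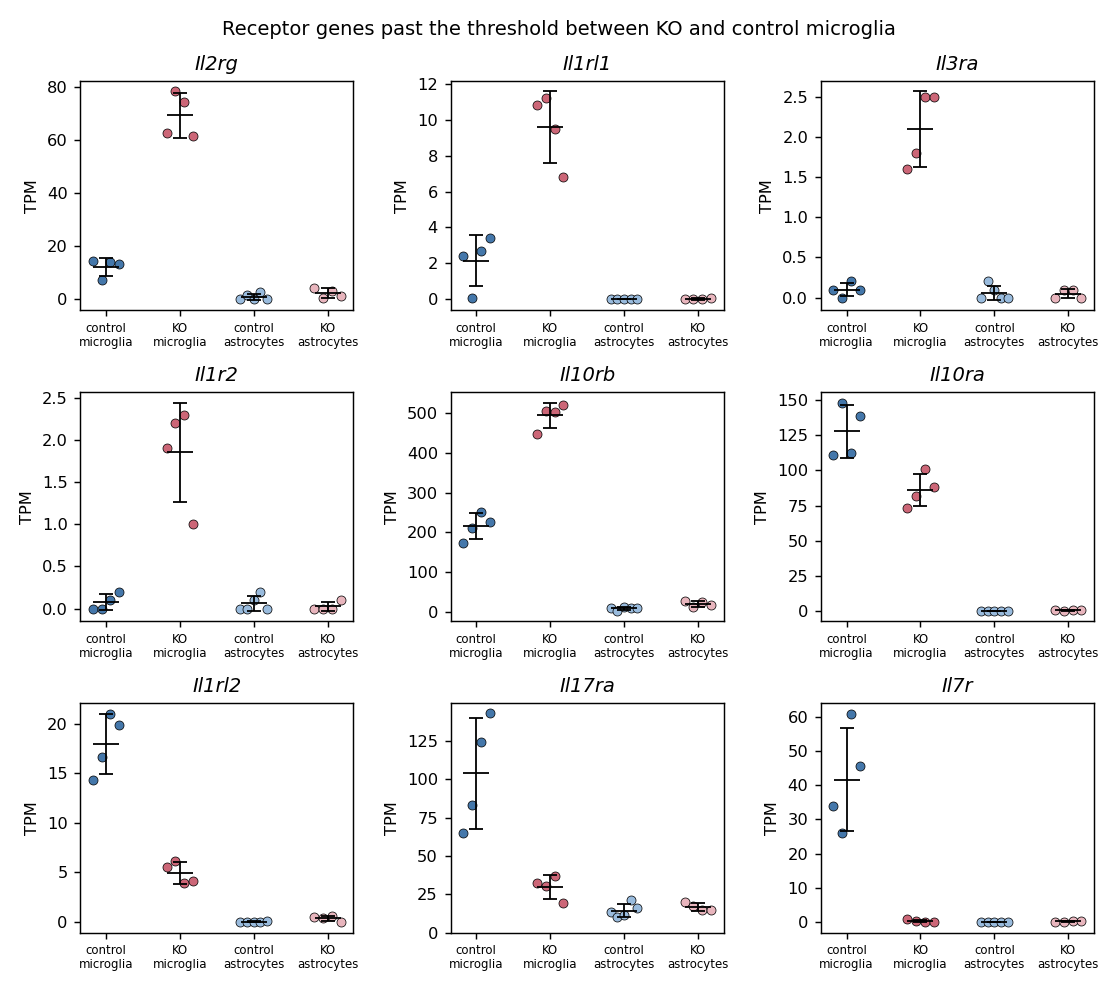
TPM of the 9 receptor genes that passed the test in microglia, with a point for each library and the mean of each group. KO and control microglia do not overlap for any of the 9 genes.

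Values against the 2 kinds of control libraries were as follows. Against the control microglia without Y-linked RNA, which match the KO libraries in this respect, all 9 genes remained past the threshold in the same direction. Il7r differed by -4.72, Il17ra by -1.32, Il1rl2 by -1.49, Il10ra by -0.58, Il2rg by 2.64, Il1rl1 by 2.43, Il3ra by 1.55, Il1r2 by 1.48 and Il10rb by 1.35 on the log2 scale. The 9 genes also remained past it against the controls with Y-linked RNA, among them Il17ra at -2.17 and Il1rl1 at 1.37, and Il15ra (-1.09), Il6ra (-0.89) and Il21r (-0.37) passed in addition. These fits kept the genes of the full comparison. With the filter applied again, 17 receptors were tested against each kind of control, and Il7r was no longer among them. Of these, 8 passed against controls without and 11 against controls with Y-linked RNA. The summed level of the 23 genes was between 955.8 and 1008 TPM in control microglia without and between 1289.9 and 1319.5 TPM in those with Y-linked RNA. Il6ra was between 129.2 and 135.1 TPM in the former and between 207 and 219.5 TPM in the latter, and Il17ra between 65 and 83 TPM and between 124.4 and 142.8 TPM. With 2 libraries of each kind, these differences among controls were not tested.

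Markers of other cells were read in the same libraries. The 10 microglial markers summed to between 43131 and 46717.1 TPM in control and between 10020.9 and 11050.9 TPM in KO microglia, and all 10 fell. The 10 markers of border-associated macrophages summed to between 406.7 and 743.9 TPM in control and between 5275.5 and 6124.7 TPM in KO microglia, with 7 higher and 1 lower, and none of them stood at 0 in every library of a group. Pf4 and Mrc1 carried most of this sum in KO microglia. Cbr2 was lower without overlap, between 50.2 and 81.9 TPM in control and between 38 and 43.3 TPM in KO microglia. Lyve1 overlapped, between 4.4 and 75.1 TPM in control and between 5.4 and 12.1 TPM in KO microglia. The 8 monocyte markers summed to between 6.1 and 11.3 TPM and between 26.5 and 29.6 TPM, with 1 of 2 tested markers higher and 1 lower and with Plac8 and Chil3 at 0 in all KO libraries. Itga4 alone carried the higher sum, at 0.2 to 1.6 TPM in control and 22.5 to 28.4 TPM in KO microglia, while Ccr2 fell from between 4.4 and 8.5 TPM to between 0.9 and 4 TPM (limma adjusted p = 0.015). The 10 neutrophil markers summed to between 30.8 and 71.6 TPM in control and between 11.7 and 14.9 TPM in KO microglia, with Ly6g and Cxcr2 at 0 in both. Of 2 tested markers, 1 was lower and 0 were higher. Csf3r spanned 28 to 35.5 TPM in control and 9.1 to 11.4 TPM in KO microglia. S100a8 (0 to 17.4 and 0 to 1 TPM) and Mmp9 (0 to 2.9 and 1.2 to 4.3 TPM) overlapped between genotypes. The 15 listed lymphocyte markers summed to between 86 and 125.2 TPM and between 85.1 and 98.3 TPM, with Ncr1 at 0 in both. Cd79b carried most of both sums, at 74.5 to 101.9 TPM in control and 74.5 to 91.6 TPM in KO microglia. Of 4 tested markers, 1 was lower and 0 were higher. Klrd1 was lower without overlap, at 4.6 to 8.3 TPM in control and 0 to 0.2 TPM in KO microglia. Cd3g went the other way, from 0 to 0.1 TPM in control to 0.8 to 5.6 TPM in KO microglia. The 6 markers of mast cells and basophils, cells known to carry Il1rl1 and Il3ra, summed to between 0 and 19.4 TPM in control and between 0 and 4.9 TPM in KO microglia. The part of any of these cells in the receptor changes was not tested.

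In astrocytes no receptor gene passed the test between genotypes, out of 14 tested with limma, and 3 had an unadjusted p under 0.05. Of all 15231 genes tested there, 0.00657% passed, which is 1 gene, and 1939 had an unadjusted p under 0.05. The median log2 difference of the receptors was 0.41 and that of all genes 0.07. The 14 receptors held 2 whose libraries did not overlap, against 4.4% of all genes. The first was Il10rb, at 10.9, 3.4, 13.5, 11.3 and 10 TPM in control and 28.5, 14.1, 27.1 and 17.3 TPM in KO astrocytes (log2 difference 1.12, SE 0.35, limma adjusted p = 0.321). The other was Il1rap, at 17.2, 13.1, 21.4, 28.1 and 26.8 TPM in control and 33.9, 32.3, 31 and 82.1 TPM in KO astrocytes (log2 difference 0.96, SE 0.32, limma adjusted p = 0.324). The highest value of Il1rap came from KO animal 4 alone. In that library summed oligodendrocyte markers were at 14652 TPM, against 7373.4, 5848.7 and 6349.2 TPM in the KO astrocytes of animals 1 to 3. Control astrocyte libraries held between 3852.5 and 5837.5 TPM of them. The same library gave the highest values of Il17rb (24.4 TPM) and Il13ra2 (7.9 TPM). The part of oligodendrocyte RNA in these values was not tested. Il1rap overlaps an antisense gene, Gm20319, at 44.7 to 110.1 TPM in control and 108.4 to 276.2 TPM in KO astrocytes, and their reads cannot be told apart without the strand setting.

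The other receptors of astrocytes overlapped between genotypes. Il13ra1 was at 7.3, 6.9, 24.7, 36.4 and 35 TPM in control and 46.9, 16.6, 67.7 and 27.2 TPM in KO astrocytes (log2 difference 0.94, SE 0.58, limma adjusted p = 0.499). Its 2 low control values came from the animals without Y-linked RNA. Summed mural and fibroblast-like markers, in the same order, were at 457.2, 206.3, 1070.3, 3225 and 2919.2 TPM in the control astrocyte libraries. In the KO astrocyte libraries they were at 6394.2, 766.8, 9661.9 and 3652.5 TPM. The part of such cells in Il13ra1, Il2ra and the other receptors given here was not tested. Il4ra was at 1.6, 0.2, 1.5, 1.3 and 1.3 TPM in control and 2.8, 2.2, 3 and 1.5 TPM in KO astrocytes, where the lowest KO library fell within the control range (log2 difference 0.66, SE 0.26, limma adjusted p = 0.364). Il17ra spanned 9.9 to 21.1 TPM in control and 14.7 to 19.9 TPM in KO astrocytes (0.25, limma adjusted p = 0.62). Il2rg was at 0, 1.7, 0, 2.5 and 0.1 TPM in control and 4.3, 0.4, 3.1 and 1.2 TPM in KO astrocytes (0.84, limma adjusted p = 0.493). Il2ra was listed at 0, 0, 1, 3.6 and 2.5 TPM in control and 4.7, 0, 6.4 and 3.4 TPM in KO astrocytes (0.88, limma adjusted p = 0.573). Il17rb, at 13.6, 10.6, 10, 10.6 and 20.7 TPM in control and 7, 8.2, 10.8 and 24.4 TPM in KO astrocytes, was as variable within as between genotypes (-0.16, limma adjusted p = 0.868).

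Lower still, Il13ra2 spanned 0.5 to 4.2 TPM in control and 0.5 to 7.9 TPM in KO astrocytes, Il17rc 1.3 to 4.9 and 2.1 to 2.9 TPM, and Il15ra 2.5 to 5.8 and 2.2 to 4.7 TPM. Il1rapl1, which is related to IL-1 receptor accessory chains and known for its role at synapses, spanned 2.4 to 11 TPM in control and 4.8 to 8.9 TPM in KO astrocytes. Il11ra1 spanned 44.9 to 57.9 TPM and 33 to 53 TPM, and Il11ra2 8.7 to 10.8 TPM and 7.4 to 11.3 TPM. All of these overlapped, with adjusted p of 0.684 or more in limma's test.

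The 9 receptors below the filter in astrocytes were tested alone with the exact two-sided permutation test. Il6ra was at 0, 0, 0.3, 0.4 and 0.7 TPM in control and 3.6, 0.9, 1.5 and 1.4 TPM in KO astrocytes, without overlap (exact permutation p = 0.00794, the smallest that 126 assignments allow). Il10ra was at no more than 0.1 TPM in control and at 0.7, 0.1, 0.4 and 0.5 TPM in KO astrocytes (exact permutation p = 0.0238). Il1rl2 was at 0, 0, 0, 0 and 0.1 TPM and at 0.5, 0.4, 0.6 and 0 TPM, and Il21r at 0 in all control and at 0.7, 0, 0.2 and 0.1 TPM in KO astrocytes (exact permutation p = 0.0476 for each). The other 5, Il1r2, Il1rl1, Il12rb2, Il3ra and Il7r, gave an exact permutation p of 0.167 or more. Across the 18 exact tests run in all comparisons these p-values are not adjusted. All 4 genes just named were higher in microglia, and their levels in astrocyte libraries were under 4 TPM. Summed microglial markers in astrocytes overlapped between genotypes, at 329.2 to 383.3 TPM in control and 264.3 to 477.8 TPM in KO libraries. Macrophage markers summed to between 11.2 and 27 TPM in control and between 18.5 and 103.7 TPM in KO astrocytes, and mural and fibroblast-like markers to between 206.3 and 3225 TPM and between 766.8 and 9661.9 TPM. Their part in the astrocyte values was not tested.

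The difference of the KO effect between the cell types was tested directly over all 17 libraries. Of the 23 receptors, 3 had a more positive effect in microglia (Il3ra, Il1r2 and Il1rl1) and 5 a more negative one (Il7r, Il1rl2, Il17ra, Il6ra and Il10ra), where 15.5% of 17087 genes passed, 6.63% more positive and 8.87% more negative. Il3ra, Il1r2 and Il7r again reached 1 TPM in the 4 libraries of a single group, and the other 20 receptors gave 1 more positive and 4 more negative. The median difference was -0.48 for the receptors and -0.06 for all genes. Il7r gave -5.22 (SE 0.31, limma adjusted p = 9.4e-09), Il1rl2 -2.09 (SE 0.25, adjusted p = 1.37e-05) and Il17ra -1.99 (SE 0.36, adjusted p = 0.000981). Il6ra gave -1.65 (SE 0.36, limma adjusted p = 0.00448), as its log2 mean was lower in KO microglia, not past the threshold, and higher in KO astrocytes, where it lay below the filter. Il10ra gave -1.0 (SE 0.21, limma adjusted p = 0.00317), in part from astrocyte values of at most 0.7 TPM. Il3ra gave 1.5 (SE 0.19), Il1r2 1.43 (SE 0.22) and Il1rl1 1.86 (SE 0.43), with limma adjusted p of 3.21e-05, 0.000202 and 0.00619. With a pseudocount of 0.1 TPM the value of Il1rl1 was 2.43 and did not pass (adjusted p = 0.0971). The fit held no term for the animal, although both cell types of an animal share its number. With the animal as a block 8 receptors and 2399 genes passed.

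Il10rb showed no such difference. Its log2 differences of 1.2 in microglia and 1.12 in astrocytes gave a contrast of 0.08 (SE 0.41, limma adjusted p = 0.93), with a 95% interval from -0.79 to 0.94 in which differences in either direction remain possible. For Il2rg the contrast was 1.61 (SE 0.61, limma adjusted p = 0.0862). It passed with a pseudocount of 5 TPM (1.83, adjusted p = 9.15e-05), with quantile normalization (1.77, adjusted p = 0.0408) and without KO astrocyte library 1 (1.91, adjusted p = 0.0419). Il1rap gave -1.22 (SE 0.43, limma adjusted p = 0.0701) and passed without control microglia of animal 2 (-1.37, adjusted p = 0.0466). Il13ra1 gave -1.26 (limma adjusted p = 0.255) and passed when only controls without Y-linked RNA were used (-2.27, adjusted p = 0.0377).

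Between the cell types of control mice nearly every receptor differed. Of 19 tested, 11 were higher in microglia and 7 in astrocytes, with only Il15ra not passing (log2 difference -0.12, limma adjusted p = 0.705). Among all 15332 genes 65.7% passed, 26.2% higher in microglia and 39.5% higher in astrocytes. With quantile normalization 51.6% rather than 39.8% of the genes that passed were higher in microglia, and the receptors gave 11 and 6. The 18 receptors that passed did not overlap between cell types, against 56.4% of all genes. Il6ra, Il10ra, Il21r, Il7r, Il1rl2 and Il12rb2 reached 1 TPM in no control astrocyte library, and Il17rc, Il1rapl1 and Il13ra2 in no control microglia library. These genes entered the test only through the cell type in which they were high, so their calls follow in part from the filter. The counts therefore describe the set and give it no support.

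Higher in microglia were chains of the receptors of IL-10, IL-6, IL-21, IL-7, IL-36, IL-4, IL-13, IL-17 and IL-12. Il6ra differed by 7.07 (SE 0.23, limma adjusted p = 1.27e-09), Il10ra by 6.94 (SE 0.14, adjusted p = 6.28e-11), Il21r by 6.15 (SE 0.14, adjusted p = 1.34e-10) and Il7r by 5.35 (SE 0.23, adjusted p = 8.37e-09) on the log2 scale. Il10rb (4.42), Il1rl2 (4.20), Il4ra (4.04), Il13ra1 (3.93), Il2rg (3.00), Il17ra (2.75) and Il12rb2 (1.23) were also higher in microglia. Il1rl1, below the filter, was at 0 in all control astrocytes and above 0 in all control microglia (exact permutation p = 0.00794).

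A different set was higher in astrocytes. Il17rb differed by -3.22 (SE 0.29, limma adjusted p = 3.68e-06), Il1rapl1 by -2.62 (SE 0.32, adjusted p = 3.19e-05) and Il1rap by -2.32 (SE 0.25, adjusted p = 1.12e-05). Il17rc (-1.65), Il13ra2 (-1.44), Il11ra2 (-0.60) and Il11ra1 (-0.58) differed less. Actr8 overlaps Il17rb, and Serbp1 overlaps Il12rb2, on the other strand (listed at up to 66.7 and 20 TPM). Without the strand setting the reads of these pairs cannot be told apart. Il11ra1 was the most abundant receptor of control astrocytes at 51.1 ± 4.72 TPM (SD, n = 5), 31.8% of the summed TPM of the 23 genes, with no overlap with the next, Il13ra1 at 22.1 ± 14.4 TPM. Il11ra1 overlaps Galt on the same strand (listed at up to 58.2 TPM) and Dctn3 and Rpp25l on the other strand (up to 205.7 and 64.9 TPM), so its level is uncertain beyond its copy Il11ra2. In KO astrocytes it overlapped with Il1rap, at 46.4 ± 9.11 and 44.8 ± 24.9 TPM (SD, n = 4). Among the IL-17 receptor chains Il17ra was higher in microglia and Il17rb and Il17rc were higher in astrocytes, though Il17ra was also between 9.9 and 21.1 TPM in control astrocytes. The ligand of Il1rl1, Il33, was at 365 ± 60.6 TPM in control astrocytes (SD, n = 5) and at 0.85 ± 0.37 TPM in control microglia (SD, n = 4). Summed oligodendrocyte markers, between 3852.5 and 5837.5 TPM, were present in control astrocyte libraries, and their part in these receptors was not tested. Among control animals without Y-linked RNA alone, 3 of these differences did not pass: Il11ra2 (-0.79, adjusted p = 0.0571), Il12rb2 (0.94, adjusted p = 0.0762) and Il13ra2 (-1.01, adjusted p = 0.0948). Il11ra2 also did not pass with quantile normalization (-0.29, adjusted p = 0.0728).

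Partner chains, ligands and signalling genes of these receptors were read in the same comparison of KO with control microglia. Among all genes 28.4% passed in this comparison, 14.2% in each direction. Of 5 tested partner chains, 1 was lower and 0 were higher. This was Il6st, the gp130 chain of the IL-6 and IL-11 receptors, at 182 ± 16.9 TPM in control and 69.5 ± 15.7 TPM in KO microglia (SD, n = 4 each, log2 difference -1.41, SE 0.17, limma adjusted p = 0.000205). The ratio of Il6st to Il6ra was between 0.765 and 1.53 in control and between 0.332 and 0.845 in KO libraries. Of the interleukin ligands, 37 of 41 listed genes were in the files and 10 were tested, with 6 higher and 3 lower. Tslp, a cytokine that binds Il7r together with Crlf2, rose from 8.25 ± 2.15 to 62.9 ± 7.16 TPM (log2 difference 2.81, limma adjusted p = 4.27e-06), and Crlf2 was between 8.2 and 17 TPM in control and between 11.6 and 15.8 TPM in KO microglia. Ebi3, a subunit of IL-27 and IL-35, rose from 81.2 ± 14.5 to 262 ± 25.4 TPM (1.69, limma adjusted p = 1.88e-05). Il1a fell from 100 ± 10.4 to 30.8 ± 6.22 TPM (-1.68, limma adjusted p = 3.62e-05), and Il6 from 24.6 ± 7.06 to 2.7 ± 1.18 TPM (-2.81, limma adjusted p = 5.52e-05). The soluble antagonist Il18bp, which binds IL-18, rose from 3 ± 2.51 to 37 ± 4.65 TPM (3.45, limma adjusted p = 0.00012).

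Of 12 JAK, STAT and SOCS genes tested, 2 were higher and 4 lower, where 14.2% of all genes passed in each direction. Socs3, an inhibitor of gp130 signalling that IL-6 and IL-10 induce, fell by 1.85 on the log2 scale and Socs1 by 1.17, while Stat2 rose by 1.30. Of 12 adaptors of IL-1 and IL-17 receptors tested, a share near the 28.4% of all genes passed: 2 were higher (Irak3, 1.14, an inhibitory kinase, and Irak4, 0.66) and 2 lower (Traf5, -1.32, and Irak2, -0.71). In astrocytes none of these lists held a gene that passed limma's test, and 2 partner chains, 2 ligands, 2 signalling genes and 0 adaptors had an unadjusted p under 0.05. Genes with the smallest p-values there included Il6st (log2 difference 0.61) and Osmr (0.80) among partner chains, Il12a (0.95) and Tslp (1.05) among ligands, Stat6 (1.47) among signalling genes, and Traf6 (0.42) and Myd88 (0.39) among adaptors.

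The other 17 receptor genes were at or near 0. Il23r, Il20ra and Il9r were listed at 0 in all 17 libraries, and 12 genes, these 3 included, never reached 1 TPM. The highest values among the rest were 0.9 TPM for Il18rap, 0.7 TPM for Il27ra, 0.5 TPM for Il5ra, 0.3 TPM for Il2rb and 0.2 TPM for Il18r1, Il17re and Il1rapl2. The 5 genes that reached 1 TPM in some library were Il22ra2 (highest 3.5 TPM), a soluble IL-22 binding protein, Il20rb (2.6), Il1r1 (1.2), Il17rd (1.2) and Il12rb1 (1.1). With the depth unknown, a value listed at 0 does not show that a transcript was absent.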

How the data were processed

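RNA from sorted mouse brain microglia and astrocytes was sequenced as paired reads of 61 bp, per the labels' protocols. The authors deposited 1 file of TPM values per library, with 1 decimal, and a value under 0.05 TPM appears as 0. STAR 2.6.1e, featureCounts 1.6.2, cutadapt 1.9.1, Trim Galore 0.4.2 and the build mm10 were used per the submitters' processing notes. The role of each tool, the annotation, the strand setting and the handling of reads with several matches are not given in the sources used here. TPM keeps no read depth, so no counting interval is given.

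From these values log2(TPM + 1) was computed. Every gene that reached 1 TPM in 4 or more libraries of a comparison was tested with limma 3.58.1 in R 4.3.3 (variance trend, two-sided, Benjamini-Hochberg adjustment over all genes tested, threshold 0.05). Receptors below that filter were tested alone with an exact permutation test. The script was checked on simulated data in which 200 genes were changed. Groups came from cell type, genotype and mouse number in the labels. The remaining library of the 18, whose title and sample code name different cell types, entered no comparison. The labels give both cell types of an animal the same number, and deviations of such pairs correlated at 0.0745 to 0.189 in control and 0.03 to 0.115 in KO animals. The main fits, also those between cell types, held no term for the animal.

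The receptors and gene lists were chosen with earlier results of these data known. Every described receptor was named, with full statistics where it passed a test. Of each pathway list up to 4 genes with the smallest p among those that passed were named, or 2 where none passed, and of each marker list the summed level and the genes at 0. A few genes that this rule would name are not reported here. Csf2rb, Csf2rb2, Crlf2, Ifnlr1, Il33 and single macrophage, monocyte, neutrophil and lymphocyte markers were named after their values were seen. Positions are from GENCODE M21 (GRCm38) and promoter sequences from RefSeq (GRCm38.p6). Alternatives were other pseudocounts, filters and scalings, the replicate number as a block, each kind of control alone and each library left out. Python 3.11.15 with numpy 2.4.6, pandas 2.3.3 and matplotlib 3.10.9 served for the rest.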

Additional observations from a re-analysis of the deposited data

Results flagged for a closer look

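Among 61 groups of libraries in which a receptor's median was at least 1 TPM, 5 held a library far from the others by Dixon's criterion, which chance alone meets in about 1 in 20 groups. These were Il12rb2 at 4.1 TPM in a KO microglia library, Il4ra at 0.2 TPM in a control astrocyte library, Il1rap at 2.1 TPM in a control microglia library and at 82.1 TPM in a KO astrocyte library, and Il2rg at 7.2 TPM in a control microglia library. Control animal 2 gave 3 of these values, for Il4ra, Il1rap in microglia and Il2rg.

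The KO effect differed between microglia and astrocytes, by the contrast over all libraries, for 8 receptors. In microglia minus astrocytes the difference was 1.43 for Il1r2, 1.86 for Il1rl1 and 1.5 for Il3ra, and -2.09 for Il1rl2, -1.65 for Il6ra, -1.99 for Il17ra, -1.0 for Il10ra and -5.22 for Il7r on the log2 scale. Il1r2, Il3ra, Il1rl1, Il1rl2, Il10ra and Il7r were at no more than 0.7 TPM in any astrocyte library. For Il1r2, Il3ra, Il1rl1 and Il7r the contrast rests mostly on the microglial values. For Il10ra and Il1rl2 the low astrocyte values also entered, with log2 differences of 0.44 and 0.41 there against -0.56 and -1.68 in microglia. Under the alternatives run the contrast of Il10ra spanned -2.39 to -0.65, and its difference in microglia -0.64 to -0.49.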

How the results depend on the processing

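No receptor that passed a test changed direction under the alternatives run. In KO against control microglia 3711 genes passed, and 2079 with the replicate number as a block, where 8 rather than 9 receptors passed and Il10ra did not (log2 difference -0.60, adjusted p = 0.0564). The library titles number the mice within each genotype and name no pairs across genotypes. Deviations of same-numbered libraries of the 2 genotypes correlated at -0.0041 to 0.0162 in microglia and -0.0756 to 0.176 in astrocytes. These values cannot decide whether the numbers pair, since both cell types of the same animal also correlated at only 0.03 to 0.189. The block left 0 genes in astrocytes and changed no other receptor's call. In astrocytes 1 gene passed, 3 did without a filter, 3 against controls without and 2 against controls with Y-linked RNA, and 0 to 5 when a library was left out. Leaving out each library gave 2918 to 3799 genes and 9 to 12 receptors in microglia (median -0.24 to -0.09), 0 receptors in astrocytes (median 0.29 to 0.53), 2203 to 2726 genes and 8 to 9 receptors for the contrast of effects (median -0.52 to -0.30), and 9530 to 9954 genes and 18 receptors between cell types (median 2.58 to 2.91).

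Between cell types the receptors' median, 2.75, was 1.55 with a pseudocount of 5 TPM, 3.99 with a filter at 5 TPM and 3.01 against controls with Y-linked RNA, and 6590 rather than 10078 genes passed among controls without it. In the fits with libraries left out the genes of the full comparison were kept. This was decided after the data were seen, since applying the filter of 4 libraries again removes genes found in microglia alone. With the filter applied again, leaving out each library gave 7 to 11 receptors in microglia (7 of 16 tested without any 1 KO library, where Il1r2 and Il3ra were no longer tested, with medians down to -0.31) and 6 to 9 for the contrast of effects. Leaving out a microglia library left 13 receptors tested between cell types, 12 past the threshold, and a median of -0.60 to -0.54, against up to 3.09 without an astrocyte library. Among controls without Y-linked RNA 7 receptors were then tested, 5 passed, the median was -0.32 and 3339 genes passed. Among those with it 8 were tested, 6 passed, the median was 1.57 and 6063 genes passed. In astrocytes these controls gave 0 and 3 genes.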

Other observations

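The library in no group was listed with Il7r at 35.8 TPM, Il10ra at 130.2 TPM, Il10rb at 191.4 TPM, Il2rg at 10.9 TPM, Il13ra1 at 270.7 TPM, Il6ra at 144.3 TPM, Il17ra at 65 TPM, Il21r at 65.3 TPM and Il1rl2 at 17.3 TPM. Il1rl1 was at 3.2 TPM and Il1r2 at 0.2 TPM in it. The microglial markers P2ry12 and Tmem119 were at 3369.5 and 2950.4 TPM and the astrocyte markers Slc1a2 and Aldh1l1 at 0.5 and 0.7 TPM.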
